A study of Mus musculus with 16 samples.

Results

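The 10 genes described here encode enzymes and partner subunits of the complexes that write a repressive and an activating histone mark. Ezh1, Ezh2, Eed, Suz12 and Jarid2 belong to Polycomb repressive complex 2 (PRC2), and Kmt2a, Kmt2b, Setd1a, Setd1b and Cxxc1 to the methyltransferase complexes for lysine 4 of histone H3. They were chosen by name, with earlier results of these data known, from the 21887 protein-coding genes of the RefSeq gene table. The 3 deposited region lists were searched in each gene and within 30 kb of it, which gave 48 regions of the 135884 listed. Of these, 5 were succinyllysine regions, 37 were H3K4me3 regions and 6 were H3K27me3 regions.

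Chromatin came from 2 lines of immortalized mouse embryonic fibroblasts. The experimental line was R26M2rtTA/+;TetOcre;Sdhcfl/fl, in which both copies of Sdhc are floxed, and the control line was R26M2rtTA/+;TetOcre;Sdhcfl/wt, with 1 floxed copy and 1 wild-type copy. Both carried a Cre recombinase under a tetracycline-responsive promoter and both were treated with doxycycline at 1 µg/mL, so the control line can lose 1 copy of Sdhc too. Sdhc encodes a subunit of succinate dehydrogenase. Cells were taken at day 16. Each line has 2 ChIP samples per antibody, to succinyllysine, H3K4me3 or H3K27me3, and 2 input samples, which makes 16 in all. The labels name cell lines, and nothing in them says whether the samples of a line came from separate cultures. A single list of regions was deposited per antibody for its 4 ChIP samples. It gives positions alone, so fl/fl and fl/wt cells were not compared, no region can be assigned to a line, and neither read depth nor replicate error is known. All values that follow describe those lists, and no test was made on them. As a check of the labelled cell type, H3K4me3 lay at a gene end of 8 of 10 fibroblast markers (not at Thy1 or Lum), of 2 of 5 epithelial, 1 of 4 haematopoietic, 0 of 3 endothelial, 0 of 3 pluripotency and 1 of 3 neuronal markers.

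PRC2 methylates lysine 27 of histone H3 through EZH1 or EZH2. SUZ12 holds the complex together, EED binds the finished H3K27me3 mark and stimulates the enzyme, and JARID2 is an accessory subunit that helps bring PRC2 to its targets. KMT2A and KMT2B (also called MLL1 and MLL2) and SETD1A and SETD1B methylate lysine 4 of histone H3 in complexes of the COMPASS type, and CXXC1 (CFP1) joins SETD1 complexes. CXXC1, KMT2A and KMT2B bind unmethylated CG dinucleotides through CXXC domains. H3K4me3 lies at active and poised promoters, and H3K27me3 at genes that Polycomb represses. Succinyllysine is lysine that carries a succinyl group.

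The annotated starts of 7 of the genes are in RefSeq's promoter table, built on GRCm38.p6 (mm10 coordinates). They are those of Ezh1, Ezh2, Eed, Suz12, Jarid2 (2 starts), Kmt2a and Setd1a. All 8 starts lay inside an H3K4me3 region, against 53.1% of the 21263 annotated starts of coding genes. The 250 bases before the start are printed for Ezh2, the gene with succinyllysine at its end, for its paralogue Ezh1, for Suz12, where 2 H3K4me3 regions meet within these bases, and for Kmt2a, which had the widest H3K4me3 region of the 7. Capitals mark CG dinucleotides.
Ezh2 (chr6:47595031-47595280, minus strand): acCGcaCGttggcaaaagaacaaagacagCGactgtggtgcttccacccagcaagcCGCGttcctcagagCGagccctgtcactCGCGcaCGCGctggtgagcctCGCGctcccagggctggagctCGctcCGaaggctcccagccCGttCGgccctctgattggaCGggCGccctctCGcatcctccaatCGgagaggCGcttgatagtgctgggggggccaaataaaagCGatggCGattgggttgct
Ezh1 (chr11:101226464-101226713, minus strand): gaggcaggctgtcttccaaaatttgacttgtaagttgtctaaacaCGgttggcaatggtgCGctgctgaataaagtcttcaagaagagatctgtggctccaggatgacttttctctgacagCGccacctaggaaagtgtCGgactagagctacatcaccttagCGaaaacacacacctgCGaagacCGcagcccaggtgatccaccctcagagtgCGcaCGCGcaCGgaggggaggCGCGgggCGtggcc
Suz12 (chr11:79992856-79993105, plus strand): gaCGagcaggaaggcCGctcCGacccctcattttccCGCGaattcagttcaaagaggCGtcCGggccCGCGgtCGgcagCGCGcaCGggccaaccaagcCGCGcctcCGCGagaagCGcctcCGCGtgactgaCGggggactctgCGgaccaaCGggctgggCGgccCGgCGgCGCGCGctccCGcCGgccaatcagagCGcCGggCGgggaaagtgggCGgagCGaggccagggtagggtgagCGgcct
Kmt2a (chr9:44881290-44881539, minus strand): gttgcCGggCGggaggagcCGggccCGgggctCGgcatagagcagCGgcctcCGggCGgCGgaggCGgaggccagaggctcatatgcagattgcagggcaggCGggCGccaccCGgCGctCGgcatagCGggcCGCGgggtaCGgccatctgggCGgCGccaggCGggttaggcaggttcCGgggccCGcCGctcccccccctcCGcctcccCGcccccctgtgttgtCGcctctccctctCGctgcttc

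The 4 sequences differ in their number of CG dinucleotides, with 23 at Ezh2, 14 at Ezh1, 37 at Suz12 and 29 at Kmt2a. The windows of the other genes held 12 at Eed, 25 at Setd1a, and 23 and 22 at the 2 starts of Jarid2. The median over the 8 windows was 23, against 17 for the 11283 starts inside an H3K4me3 region and 10 for all 21263 starts. Fewer CG dinucleotides than at Suz12 were found in 97.2% of all windows. On either strand, CCAAT was found in 3 of 8 windows (37.5%) and in 35.4% of all windows, GGGCGG in 4 of 8 (50.0%) and in 42.6% of all, and TATAAA in 1 of 8 (12.5%) and in 11.6% of all. Among the windows whose start lay in an H3K4me3 region, as all 8 did, the shares were 35.9% for CCAAT, 64.1% for GGGCGG and 5.40% for TATAAA, and 8 windows are few to set against either background. The letters CCAAT occurred 3 times at Ezh2, as they did at least that often in 3.36% of all windows. GGGCGG contains a CG dinucleotide, so those counts overlap, and the letters show no binding of any factor.

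Every one of the 10 genes had H3K4me3 at a gene end, meaning a region that shared at least 1 bp with the 1000 bp on either side of an outer end. Over all coding genes the share was 55.6%, and 77.0% had it in the gene or within 30 kb. Each gene had it at exactly 1 end, as did 47.9% of all coding genes and 10486 of the 12163 with H3K4me3 at an end. At the 7 genes with an annotated start that end was the start. No gene had H3K27me3 at an end, where 13.6% of all coding genes had it, or inside, where 15.3% had it. Of the coding genes with H3K4me3 at an end, 8.89% had H3K27me3 at an end or inside. Succinyllysine lay at an end of 1 gene, Ezh2, against 5.42% of all coding genes, and inside none, against 5.40%.

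**Figure D1:**
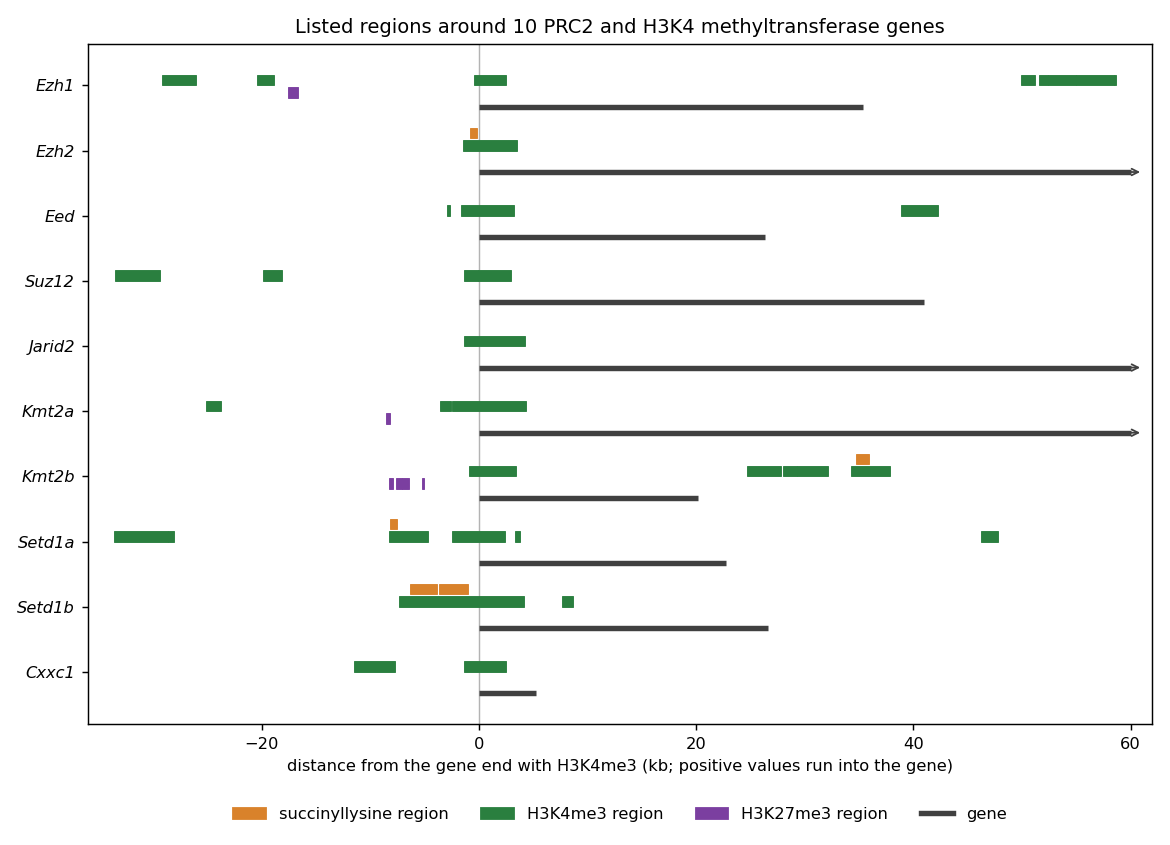
Regions of the 3 lists around each gene, plotted by distance in kb from the gene end that carries H3K4me3, with the gene as a dark line running right (arrows mark genes longer than 60 kb, and regions beyond 60 kb are not drawn). H3K4me3 (green) covers the zero line in all 10 genes, succinyllysine (orange) appears at 4 genes and H3K27me3 (purple) at 3, always away from the gene itself. Of all coding genes, 23.6% had succinyllysine and 42.9% had H3K27me3 in the gene or within 30 kb. Regions that touch are drawn as 1 block.

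Among the PRC2 genes, the paralogues Ezh1 and Ezh2 differed in all 3 lists. Ezh2 (chromosome 6, 47530274 to 47595270) had a 4900 bp H3K4me3 region at 47591801 to 47596700, which reached 1670 bp upstream and 3229 bp downstream of the start at 47595030. A 700 bp succinyllysine region lay wholly inside it, at 47595401 to 47596100, from 371 to 1070 bp upstream of the start. It therefore lay outside the gene and outside the 250 bases printed, and inside F830010H11Rik, a long noncoding RNA gene (47595209 to 47597538) that overlaps the end of Ezh2. No other region of any list lay within 30 kb of Ezh2, and the nearest H3K27me3 region was 105 kb away.

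Ezh1 (chromosome 11, 101191115 to 101226463) had the narrowest H3K4me3 region of the 10 genes, 2900 bp at 101224001 to 101226900, with 437 bp upstream and 2462 bp downstream of its start. It had no succinyllysine within 30 kb, and the nearest was 127 kb away. A 900 bp H3K27me3 region lay 16.6 kb beyond the start side, at 101243101 to 101244000, and touched no gene. The flanks of Ezh1 also held 7 H3K4me3 regions. They lay at or in Plekhh3, Ccr10 and Cntnap1 on one side, and at Ramp2 and Vps25 on the other.

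Eed, Suz12 and Jarid2 had H3K4me3 and neither other mark within 30 kb. Eed (chromosome 7, 89954654 to 89980976) had a 4900 bp H3K4me3 region at 89977701 to 89982600, of which 1624 bp lay upstream of the start and 3275 bp downstream. A 300 bp H3K4me3 region followed 2.62 kb outside the gene, and a 3400 bp region marked Hikeshi beyond the other end. Its nearest H3K27me3 region was 843 kb away, the farthest of the 10 genes.

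At Suz12 (chromosome 11, 79993106 to 80034123), H3K4me3 was listed as 2 regions that touch, 1300 bp at 79991701 to 79993000 and 3100 bp at 79993001 to 79996100. The first ended 106 bp before the annotated start at 79993106, so the boundary falls within the 250 bases printed. Of all H3K4me3 regions in the list, 7.17% were followed by another with no gap. Joined, the 2 regions span 4400 bp and reach 1405 bp upstream of the start; the wider region alone reaches 105 bp upstream. Farther out, a 1800 bp region lay at the long noncoding RNA gene Gm30875 and a 4200 bp region at Utp6.

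Jarid2 (chromosome 13, 44730774 to 44921643) is the longest of the genes at 191 kb, and its only region in the 3 lists was 5600 bp of H3K4me3 at 44729401 to 44735000. That region covered both annotated starts, 44730774 and 44731271, and 2.21% of the gene. Of 618 coding genes at least as long as Jarid2 with H3K4me3 at an end, 17.0% had no region apart from H3K4me3 at their ends. This covers the gene and 30 kb around it, whatever the number of H3K4me3 regions at the ends. The nearest succinyllysine region was 758 kb away, the farthest of the 10 genes, and the nearest H3K27me3 region 125 kb away.

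Among the H3K4 methyltransferase genes, Kmt2a (chromosome 9, 44803355 to 44881352) had a 6800 bp H3K4me3 region at 44877001 to 44883800. It reached 2511 bp upstream and 4288 bp downstream of the annotated start at 44881289. Of coding genes with H3K4me3 at an end, 94.3% had a narrower region there. A 1000 bp H3K4me3 region followed outside the start at 44883901 to 44884900, at an end of the long noncoding RNA gene Gm39326. That gene (44854919 to 44884837) overlaps Kmt2a, and the 6800 bp region lay inside it. A 400 bp H3K27me3 region lay 8.21 kb upstream of the annotated start at 44889501 to 44889900. It was inside the long noncoding RNA gene Gm30883 (44888824 to 44893205), near an end of that gene. Succinyllysine was 68.4 kb away at the nearest.

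Kmt2b (chromosome 7, 30568855 to 30589056) had a 4400 bp H3K4me3 region at its upper end, 30585601 to 30590000. This region also covered an end of Zbtb32, a zinc finger gene whose nearer outer end lies 623 bp away. All 4 H3K27me3 regions near Kmt2b lay inside Zbtb32, from 5.04 to 7.95 kb outside Kmt2b, with widths of 200, 600, 600 and 300 bp. The succinyllysine region near Kmt2b was 1200 bp wide (30553101 to 30554300) and lay 14.6 kb beyond its other end. It was inside a 3600 bp H3K4me3 region at the neighbouring ends of Proser3 and of Hspb6, which encodes a small heat shock protein. Other H3K4me3 regions beyond that end of Kmt2b, of 2900, 1300 and 3200 bp, lay at Lin37, Psenen and U2af1l4. Of 9 coding genes within 30 kb of Kmt2b, 7 had H3K4me3 at an end, against 55.6% of all coding genes. Zbtb32 is among the 7 only through the region at Kmt2b.

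Setd1a (chromosome 7, 127777389 to 127800122) had a 4900 bp H3K4me3 region at 127774901 to 127779800, with 2488 bp upstream of the start and 2411 bp downstream. It was the only one of the 8 starts where the region reached further upstream. Its outer part covered an end of Orai3, a calcium channel gene. A second region of 500 bp lay inside Setd1a, from 127780701 to 127781200. A 700 bp succinyllysine region lay 7.49 kb outside the start, at 127769201 to 127769900, within a 3600 bp H3K4me3 region (127769101 to 127772700) that covered the facing ends of Fbxl19 and Orai3.

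Setd1b (chromosome 5, 123142040 to 123168630) had the widest H3K4me3 region of the 10 genes, 11500 bp at 123134701 to 123146200. At 59 of 21887 coding genes was a region at a gene end as wide or wider. The region covered the facing ends of Setd1b and Rhof, a small GTPase gene whose nearer outer end lies 231 bp away. The list held 2 succinyllysine regions inside it, of 2500 bp (123135701 to 123138200) and 2600 bp (123138401 to 123141000), with a gap of 200 bp. Both lay on the Rhof side, and the closer one ended 1040 bp outside Setd1b, just past the 1000 bp window, while the one at Ezh2 was 131 bp from its gene. Of the 36 H3K4me3 regions of 11500 bp or more, 26 (72.2%) touched succinyllysine, and of the 7203 regions of 2900 to 6800 bp, the range of the other 9 genes, 8.57% did. A further 1000 bp H3K4me3 region lay inside Setd1b at 123149701 to 123150700.

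Cxxc1 (chromosome 18, 74216212 to 74221493) is the shortest gene at 5.28 kb. Its 3900 bp H3K4me3 region at 74214801 to 74218700 covered 47.1% of the gene, the largest share of the 10, against 2.21% to 17.1% in the others. A 3800 bp region marked Ska1, 7.71 kb away. Neither succinyllysine nor H3K27me3 lay within 30 kb, and the nearest regions were 267 kb and 51.3 kb away.

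**Figure D2:**
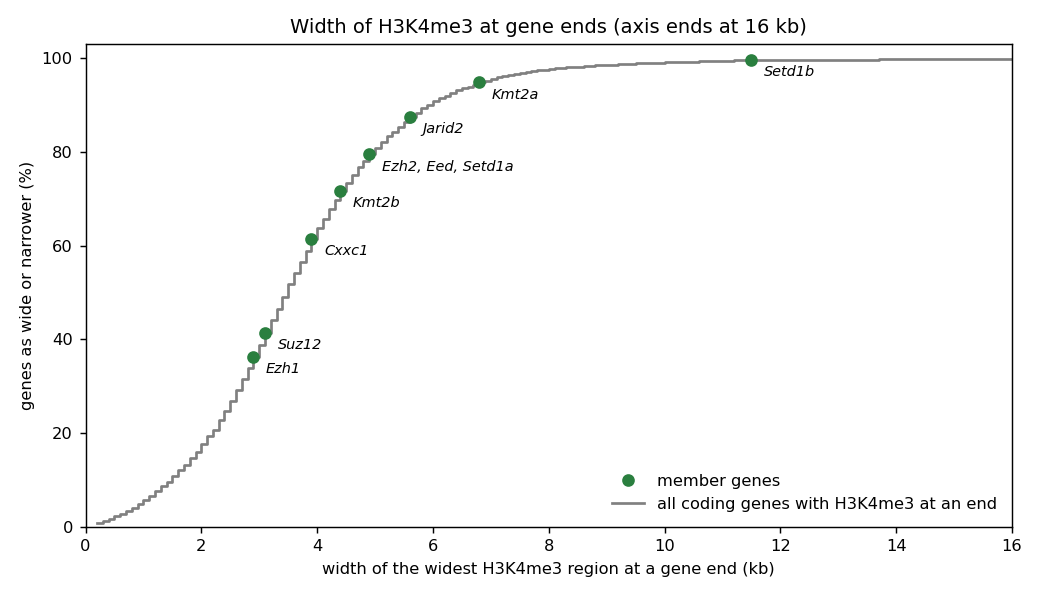
Width in kb of the widest H3K4me3 region at a gene end (horizontal axis) against the percentage of coding genes with H3K4me3 at an end that are as wide or narrower (vertical axis), with the 10 genes as green points and all 12163 marked genes as a grey line. The points run from 2.90 kb at Ezh1 to 11.5 kb at Setd1b, and 8 of 10 lie above the median of 3.50 kb.

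Across the 10 genes the widest H3K4me3 region at a gene end had a median width of 4900 bp, against 3500 bp over the 12163 coding genes with H3K4me3 at an end. The median was 4900 bp for the 5 PRC2 genes (2900 to 5600 bp) and 4900 bp for the 5 H3K4 methyltransferase genes (3900 to 11500 bp). Widths of at least 4900 bp, a value taken from the median of the 10, were found at 6 of them, at 22.0% of the coding genes with H3K4me3 at an end and at 12.2% of all coding genes. A threshold at their own median fixes that at least 5 of the 10 reach it. Ezh1 (2900 bp) and Suz12 (3100 bp) were below the median of marked genes, and the other 8 above it. With touching regions joined in all genes, the median of marked genes was 3700 bp and Suz12 (4400 bp) was above it.

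From the gene end it covered, the region reached between 2411 and 4351 bp into the gene, a 1.80-fold range, and between 105 and 7339 bp out of it, a 69.9-fold range. The lowest outward value is that of Suz12, and with touching regions joined, an alternative chosen after seeing the data, Suz12 reached 1405 bp outward and the range ran from 437 bp at Ezh1 to 7339 bp, 16.8-fold. The highest outward value is that of Setd1b alone. Without Setd1b the highest and lowest values differed by 2383 bp outward (2051 bp with touching regions joined) and by 1940 bp inward. In bp the spread on each side was thus similar in the other 9 genes. In fold terms the outward range stayed wider, from 105 to 2488 bp (437 to 2488 bp joined) against 2411 to 4351 bp inward. The median inward reach was 3365 bp in the 10 genes and 2475 bp in the 9389 coding genes whose only marked end was covered by a region, and the median outward reach was 1420 bp against 815 bp. At Setd1b the reach was 4160 bp inward, further than in 92.0% of those genes, and 7339 bp outward, further than in 99.8%. Kmt2a (4351 bp) and Jarid2 (4226 bp) reached further into the gene than 93.6% and 92.7% of those genes. In 8 of 10 genes the region reached further inward than outward, as in 84.0% of the 9389 genes. At the exceptions, Setd1a and Setd1b, the region also covered the end of a neighbouring coding gene on the outward side. The region at Kmt2b did so too, and it reached further inward (3455 bp) than outward (944 bp).

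**Figure D3:**
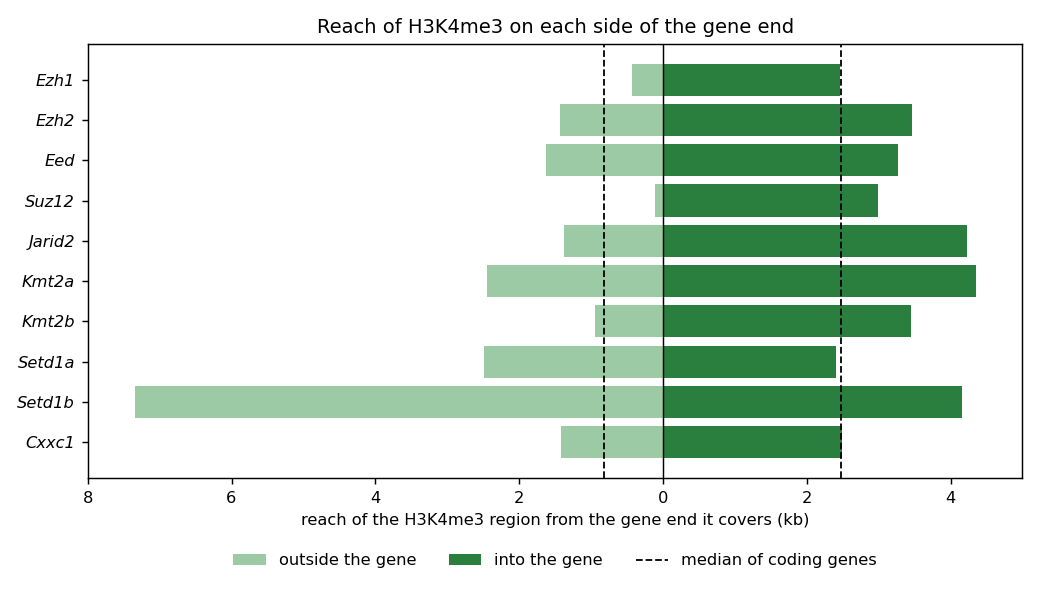
Reach in kb of the H3K4me3 region from the gene end it covers, outward to the left in light green and into the gene to the right in dark green, with the medians of 9389 coding genes as dashed lines (815 bp outward and 2475 bp inward). Inward bars lie between 2411 and 4351 bp, and the outward bar of Setd1b, at 7339 bp, is the longest.

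The succinyllysine list held 5 regions near 4 of the genes, Ezh2, Kmt2b, Setd1a and Setd1b. Over all coding genes 23.6% had succinyllysine in the gene or within 30 kb, and 24.6% of those with H3K4me3 at an end did. Outside the gene and away from its ends it lay near 3 of the 10, all but Ezh2 of these 4, against 16.7% of all coding genes. All 5 regions lay wholly inside an H3K4me3 region. Their widths were 700 bp at Ezh2 and near Setd1a, 1200 bp near Kmt2b, and 2500 and 2600 bp at Setd1b. Regions of at least 700 bp make up 26.3% of the succinyllysine list and those of at least 2500 bp 5.25%. Of these 5 regions, 1 was at an end of a member and 3 others were at an end of a neighbouring coding gene. The remaining one lay inside Rhof. The shares of the whole succinyllysine list that lie inside H3K4me3, or at an end of a coding gene, are not given here. Whether these 5 regions differ from the list in either respect is therefore not known.

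H3K27me3 was listed within 30 kb of Ezh1, Kmt2a and Kmt2b, 3 of 10 genes, against 42.9% of all coding genes and 34.4% of those with H3K4me3 at an end. Counting regions outside the gene alone, the share was the same 3 of 10 against 40.1%. The 6 regions were 200 to 900 bp wide, beside a median of 600 bp in the whole list, and none lay at an end of a coding gene. The median distance from the gene to the nearest H3K27me3 region was 115 kb in the 10 genes, 46.2 kb in all coding genes and 63.8 kb in coding genes with H3K4me3 at an end. For succinyllysine it was 97.5 kb, against 138 kb in all coding genes. The distances spread widely among the 10, from 5.04 to 843 kb for H3K27me3 and from 0.131 to 758 kb for succinyllysine. The 4 genes with H3K4me3 at an end and neither other mark within 30 kb were Eed, Suz12, Jarid2 and Cxxc1, against 26.5% of all coding genes and 47.7% of those with H3K4me3 at an end.

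**Figure D4:**
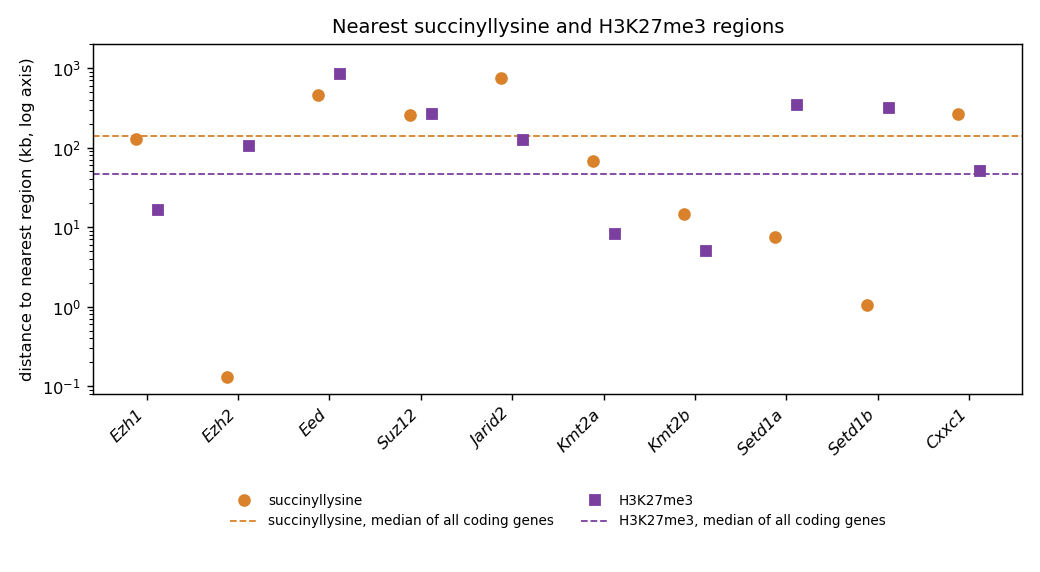
Distance in kb on a log axis from each gene to the nearest succinyllysine region (orange circles) and the nearest H3K27me3 region (purple squares), with dashed lines for the medians of all coding genes (138 kb and 46.2 kb). H3K27me3 was closer than the median at Ezh1, Kmt2a and Kmt2b, and succinyllysine lay within 30 kb of Ezh2, Kmt2b, Setd1a and Setd1b.

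The flanks of the 10 genes held 24 more H3K4me3 regions, of which 17 touched the end of another coding gene. Such regions lay near 7 of the genes, all but Ezh2, Jarid2 and Setd1b, against 54.5% of all coding genes. Inside the gene and away from its ends, H3K4me3 was listed at Setd1a and Setd1b, 2 of 10 genes, against 15.2% of all coding genes. Of the 30 coding genes within 30 kb of the 10, 24 had H3K4me3 at an end, against 55.6% of all coding genes. These counts are not independent. Zbtb32 and Rhof are among them only through the regions of Kmt2b and Setd1b, and neighbours such as Tmem25 and Ttc36 share a region. The shares for neighbours of other marked genes, and for flank regions that touch another gene's end, are not given here.

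**Figure D5:**
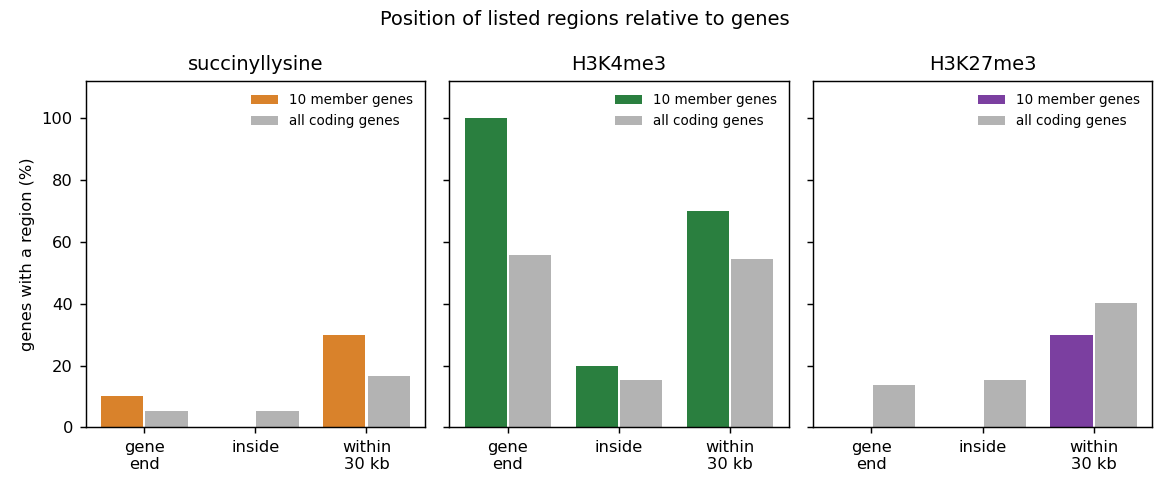
Percentage of genes with a region of each list at a gene end, inside the gene, or outside it within 30 kb, with the 10 genes as coloured bars and the 21887 coding genes as grey bars. H3K4me3 at a gene end was listed for all 10 genes and 55.6% of coding genes, and H3K27me3 at an end or inside for none of the 10. For coding genes the H3K27me3 shares were 13.6% at an end and 15.3% inside.

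Most of the 48 other genes of these pathways, also chosen with earlier results of these data known, had H3K4me3 at an end. It lay at an end of 44 (91.7%), with a median width of 4550 bp, against 55.6% of all coding genes. Succinyllysine lay at an end of 5 (10.4%), against 5.42% of all coding genes and 8.46% of those with H3K4me3 at an end. H3K27me3 lay at an end of 2 (4.17%), against 13.6% of all coding genes. In the gene or within 30 kb, 20 of the 48 had H3K27me3. The share there was 42.9% of all coding genes and 34.4% of those with H3K4me3 at an end. By group, H3K4me3 marked 8 of 9 partners of PRC2, 13 of 15 subunits of COMPASS-type complexes, 18 of 19 subunits of Polycomb repressive complex 1 (PRC1) and 5 of 5 demethylases of these lysines. Of the 4 genes without it at an outer end, Ash2l and Dpy30, core COMPASS subunits, had a region of 4300 bp and 3300 bp inside the gene. Cbx7, which encodes a chromodomain protein of PRC1, had 3 inside, the widest of 2200 bp. Ezhip, an inhibitor of PRC2, had none in the gene or within 30 kb.

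Succinyllysine lay at Rbbp7, a histone-binding subunit of PRC2 (600 bp), and at Aebp2, a PRC2 cofactor (500 bp). It also lay at Hcfc1, a scaffold of SETD1 and KMT2A complexes (1300 bp), at the PRC1 gene Phc1 (600 bp), and at the H3K4 demethylase gene Kdm5a (1100 bp). All 5 had H3K4me3 at an end as well, of 3000, 4800, 5900, 3500 and 4700 bp in that order. H3K27me3 lay at Epop, which encodes a protein that links PRC2 with elongin (5100 bp), and at Phc2, a PRC1 gene (1000 bp). Each of these also had 1700 bp of H3K4me3 at an end. The widest H3K4me3 regions were 14500 bp at Pagr1a, 11200 bp at Ring1 and 10000 bp at Phf1.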

How the data were processed

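The authors deposited 1 list per antibody with the start and end of each region on mm10 and no other value per region. Alignment to mm10 was by Bowtie2 2.2.3, per the submitters' processing notes. The peak caller, its threshold and how input and replicate libraries were used are details not given in the sources used. Coordinates fall on a 100 bp grid, with starts ending in 01 and ends in 00, and were taken as 1-based with both ends included.

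Genes were the protein-coding genes of the RefSeq table for GRCm38.p6 outside the mitochondrial genome, by their outer ends; exons and introns were not used. A region was placed at a gene end if it shared at least 1 bp with the 1000 bp on either side of an outer end, otherwise inside the gene, otherwise beyond it within 30 kb. Width is that of the widest region at an end. Promoter sequences are RefSeq's, and their letters were counted in the 250 bases before each start. The placing of regions was tested on simulated data, where all 200 placed regions were recovered in their class. Named genes are the 10 members, the other pathway genes with succinyllysine or H3K27me3 at an end, without H3K4me3 there, or with the 3 widest H3K4me3 regions, and the neighbours that regions touch. The members and lists were chosen with earlier results of these data known. Alternatives were windows of 500 and 2500 bp, flanks of 10 and 100 kb, regions wider than their list's median, merging within 1000 bp, region midpoints, annotated starts and, added after seeing the data, joining of regions that touch. Python 3.11.15, pandas 2.3.3 and numpy 2.4.6 were used.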

Additional observations from a re-analysis of the deposited data

How the results depend on the processing

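With windows of 2500 bp, 2 members had succinyllysine at an end, Ezh2 and Setd1b, in place of 1. With only the regions above their list's median width, H3K27me3 lay within 30 kb of 1 member, Ezh1, in place of 3. With regions within 1000 bp merged, the median H3K4me3 width at the gene end was 5250 bp in place of 4900 bp. With the region midpoint in place of any overlap, 5 members had H3K4me3 at an end in place of 10, since the midpoints of the others lay over 1000 bp inside or outside the gene end. H3K27me3 at a gene end was 0 of 10 members under each alternative run on it, except that annotated starts gave 0 of the 7 members that have one. With touching regions joined, an alternative chosen after seeing the data, none of the counts of members changed and the median width stayed 4900 bp. With flanks of 10 and 100 kb, H3K27me3 lay near 2 and 4 members and succinyllysine near 3 and 5. Shares over all coding genes were not computed under these alternatives. The changed member counts therefore cannot be set against the shares given above. No paired analysis was possible because the lists hold no values per sample. Leaving out a replicate was not possible for the same reason, and depth is unknown, so a mark that is not listed may have been below what the libraries could show.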
